A study of Homo sapiens with 4 samples.

Results

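Transcripts of 10 secreted signalling proteins were examined in the RNA of 2 human pancreatic cancer cell lines, without and after irradiation. The genes were chosen by their names in the deposited expression table, and all 10 of 10 were found among the 58174 genes listed. They are the chemokines CXCL8, CXCL1, CXCL2, CXCL3, CXCL5, CXCL16 and CCL20, the interleukins IL6 and IL18, and LIF, the leukemia inhibitory factor. The libraries came from SW1990 and PANC-1, established lines grown at passages 14-16, and each line was sequenced unirradiated (0 Gy) and after a dose of 10 Gy of X-rays, with 1 library for each of the 4 conditions. SW1990 was kept in 1640 medium and PANC-1 in DMEM, both with serum, so that line and medium cannot be told apart. The time from radiation to RNA collection is not given in the sources used here. The SW1990 libraries held 17851815 reads counted on genes without radiation and 18305682 after it, and the PANC-1 libraries 23323266 and 20026595. Counts are per whole gene, with no exon or transcript resolved, and all 10 are protein-coding genes placed on GRCh38. With 1 library per condition no difference has a replicate check, and every interval below is a 95% interval that covers counting error only. In these bulk libraries, fewer expressing cells and less RNA per cell cannot be told apart.

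Chemokines are small secreted proteins that direct the movement of leukocytes along a gradient. CXCL1, CXCL2, CXCL3, CXCL5 and CXCL8 carry the residues glutamate, leucine and arginine (ELR) before their CXC motif and attract neutrophils through CXCR2, and CXCL8 also through CXCR1. CXCL16 is made as a membrane protein that is cut from the surface by ADAM10 and ADAM17 and is read by CXCR6, and CCL20 acts on CCR6. IL6 and LIF bind their own receptor chains, IL6R and LIFR, and both signal through the shared chain IL6ST (gp130) to JAK kinases and STAT3. IL18 is stored as a precursor, is cut by CASP1, is bound by IL18R1 and IL18RAP, and is held back by the decoy IL18BP. In pancreatic cancer, secreted chemokines and LIF are known as signals between tumor cells and their surroundings. NF-kB is a well-known activator of the ELR chemokine genes.

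The ELR genes lie together on chromosome 4, so their promoters are shown first, since they carry a sequence that the choice of genes did not use. Each line gives the 120 bases before the RefSeq start site, 5′ to 3′ on the strand of the gene (RefSeq promoter table, GRCh38.p14), and capitals mark a match to the NF-kB consensus or to GGAATTTCC on either strand.
CXCL8: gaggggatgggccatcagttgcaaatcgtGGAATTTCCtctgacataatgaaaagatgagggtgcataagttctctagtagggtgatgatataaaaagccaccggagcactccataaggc
CXCL1: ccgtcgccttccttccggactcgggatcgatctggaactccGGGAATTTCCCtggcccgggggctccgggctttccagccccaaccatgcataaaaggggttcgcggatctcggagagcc
CXCL5: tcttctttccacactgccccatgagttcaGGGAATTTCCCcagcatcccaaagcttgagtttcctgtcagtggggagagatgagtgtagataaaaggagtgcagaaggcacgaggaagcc
CXCL3: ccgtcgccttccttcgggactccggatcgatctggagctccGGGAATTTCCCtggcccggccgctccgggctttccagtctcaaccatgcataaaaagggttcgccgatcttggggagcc
CXCL2: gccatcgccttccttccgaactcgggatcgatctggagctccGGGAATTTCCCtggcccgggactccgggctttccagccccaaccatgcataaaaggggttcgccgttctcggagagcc
IL6: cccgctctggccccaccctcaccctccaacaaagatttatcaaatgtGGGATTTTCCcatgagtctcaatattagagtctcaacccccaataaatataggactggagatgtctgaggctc
CCL20: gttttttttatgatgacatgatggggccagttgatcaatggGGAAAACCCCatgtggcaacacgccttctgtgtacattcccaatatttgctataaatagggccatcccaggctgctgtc
CXCL8 is at chr4:73740449-73740568 (+), CXCL1 at chr4:73869273-73869392 (+), CXCL5 at chr4:73998678-73998797 (-), CXCL3 at chr4:74038690-74038809 (-), CXCL2 at chr4:74099196-74099315 (-), IL6 at chr7:22727080-22727199 (+) and CCL20 at chr2:227813722-227813841 (+). The table held promoters of 7 of the 10 genes, and CXCL16, IL18 and LIF were the others. GGAATTTCC was in all 5 ELR promoters and in 162 of the 35116 promoters of the same length (300 bases, 250 of them before the start), or 0.461%. This string was picked after the promoters had been read. In CXCL1, CXCL2, CXCL3 and CXCL5 it lies inside the NF-kB consensus, a longer motif that 11.3% of all promoters held. In CXCL8 the bases beside it do not complete that consensus. IL6 and CCL20 held the consensus without GGAATTTCC. An AP-1 motif (TGANTCA, either strand) was found in CXCL8 alone of the 7, against 7.71% of all promoters, and TATAAA in CXCL8 and CCL20, against 11.5%. The promoters of CXCL1 and CXCL3 were identical at 68.7% of 300 positions in an ungapped comparison, and those of CXCL8 and CXCL1 at 25.0%. CXCL1, CXCL2, CXCL3 and CXCL5 hold the same 11 capital letters. A match describes these letters only.

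All 10 genes were ordered by FPKM, the expression value scaled to transcript length and library size that the authors deposited. In unirradiated SW1990 cells the order was CXCL16, LIF, CXCL5, IL18, CXCL8, CXCL2, CXCL1 and CXCL3, from 24.9 down to 0.851 FPKM. In unirradiated PANC-1 cells it was LIF, IL18, CXCL1, CXCL2, CXCL8, CXCL16, CCL20 and CXCL3, from 31.5 down to 0.163 FPKM. The 2 remaining genes had 0 counts, CCL20 and IL6 in SW1990 and CXCL5 and IL6 in PANC-1. The order in PANC-1 was the same after radiation, while in irradiated SW1990 cells IL18 stood above LIF and CXCL5, and CXCL3 above CXCL2 and CXCL1. With 1 library each, no spread was available to say which neighbours in an order differ. LIF in unirradiated PANC-1 cells was above 96.1% of all genes listed, and CXCL8 in irradiated SW1990 cells above 77.6%.

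**Figure D1:**
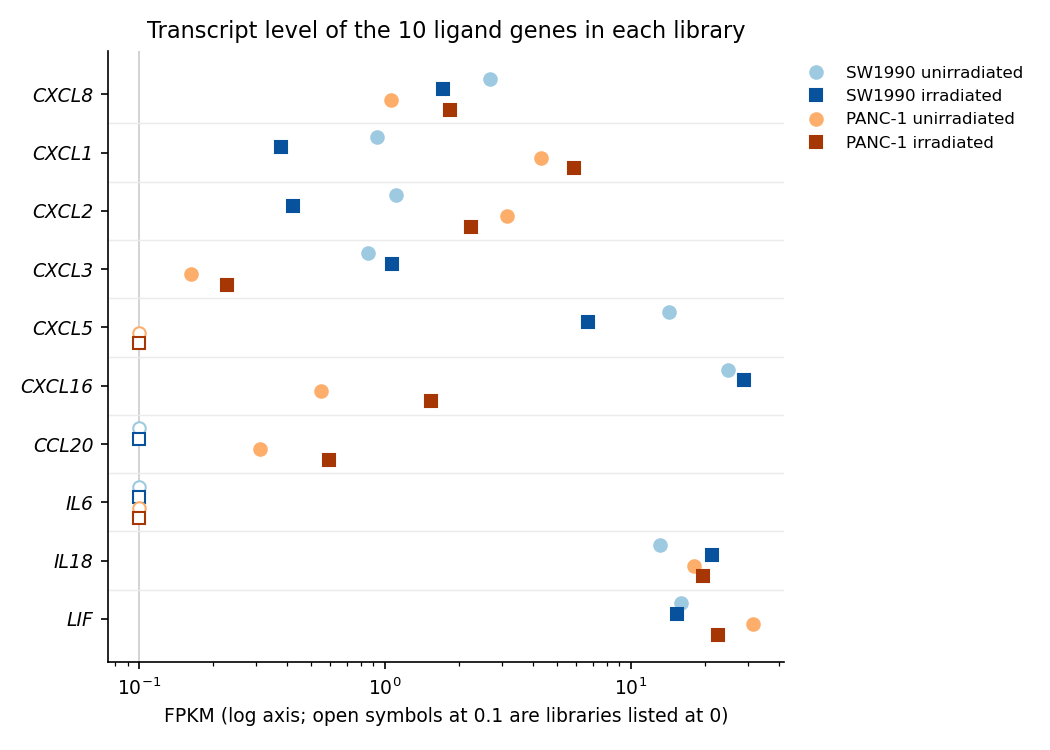
FPKM on a log axis of the 10 genes (rows) in the 4 libraries, circles for unirradiated and squares for irradiated cells, with open symbols at the left edge for libraries listed at 0. IL6 was at 0 in every library, CXCL5 was at 14.3 and 6.72 FPKM in SW1990 and at 0 in PANC-1, and LIF and IL18 lay between 13.2 and 31.5 FPKM in all 4.

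CXCL5 and CXCL8 fell in irradiated SW1990 cells, CXCL16 rose in irradiated PANC-1 cells, and no other member passed the call rule in either line. The call rule asked for a q-value under 0.001 in edgeR's exact binomial test on the counts of the 2 libraries together with a fold change above 2. It was applied to genes that reached 1 FPKM in either library of the pair. By this rule 661 of 15731 genes, or 4.2%, were called in SW1990, with 306, or 1.95%, lower after radiation. In PANC-1, 723 of 15159 genes, or 4.77%, were called, with 367, or 2.42%, higher. Without TMM scaling of the library sizes the PANC-1 calls were 462 higher and 282 lower, against 367 and 356. With an FPKM filter of 5 they were 122 higher and 197 lower. Of the members, 7 were tested in SW1990 and 2 called, and 6 were tested in PANC-1 and 1 called. The test compares 2 libraries and not the conditions, and none of the 3 calls remained when a coefficient of variation of 0.2 between replicates was assumed (0 members, with 99 genes called in SW1990 and 103 in PANC-1).

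CXCL5 (chr4:73995642-73998779, minus strand) had 795 counts (14.3 FPKM) in unirradiated and 382 counts (6.72 FPKM) in irradiated SW1990 cells, and 0 counts in both PANC-1 libraries. It was the ELR chemokine with the highest level in SW1990, with 71.9% of the summed ELR FPKM before and 65.1% after radiation. The log2 fold change of irradiated over unirradiated counts was -1.06 (-1.24 to -0.89), a 2.09-fold fall, with q = 7.4e-33 in edgeR's exact binomial test. In PANC-1 a count of 0 allows a level of up to 0.129 CPM before and 0.15 CPM after radiation (the level of 3 counts, with CPM as counts scaled to library size).

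CXCL8, the neutrophil attractant also known as interleukin 8 (chr4:73740506-73743716, plus strand), had 80 counts (2.67 FPKM) in unirradiated and 33 counts (1.73 FPKM) in irradiated SW1990 cells. In PANC-1 it had 50 counts (1.06 FPKM) before and 67 counts (1.84 FPKM) after radiation. The irradiated library was the lower one in SW1990 and the higher one in PANC-1. The log2 fold change of the counts was -1.28 (-1.92 to -0.68) in SW1990, with q = 3.8e-05 in edgeR's exact binomial test, and 0.55 (0 to 1.11) in PANC-1, which did not pass (q = 0.075, same exact test). The FPKM of SW1990 gave a log2 fold change of -0.62, under the 2-fold limit, so that the CXCL8 call held on counts only.

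CXCL1 (chr4:73869393-73871242, plus strand) had 21 counts (0.929 FPKM) and 9 counts (0.377 FPKM) in unirradiated and irradiated SW1990 cells, and 130 counts (4.31 FPKM) and 156 counts (5.89 FPKM) in PANC-1. It was the leading ELR chemokine of PANC-1, with 49.8% and 57.8% of the summed ELR FPKM. Its log2 fold change was -1.23 (-2.54 to -0.04) in SW1990, where the FPKM was too low for the gene to be tested, and 0.39 (0.05 to 0.74) in PANC-1, where it was not called. CXCL2 (chr4:74097035-74099293, minus strand) had 22 counts (1.11 FPKM) and 12 counts (0.425 FPKM) in SW1990, and 90 counts (3.13 FPKM) and 58 counts (2.24 FPKM) in PANC-1. Both lines had the lower CXCL2 count after radiation, with log2 fold changes of -0.88 (-2.03 to 0.20) in SW1990 and -0.50 (-1.01 to -0.01) in PANC-1, and neither was called. CXCL2 passed the FPKM filter in SW1990 only through the unirradiated library.

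CXCL3 (chr4:74036589-74038807, minus strand) had 23 counts (0.851 FPKM) and 19 counts (1.07 FPKM) in SW1990, and 6 counts (0.163 FPKM) and 10 counts (0.229 FPKM) in PANC-1. It was the member with the fewest counts among those above 3 counts in all 4 libraries, and its intervals were wide, with -0.28 (-1.24 to 0.66) in SW1990 and 0.87 (-0.74 to 2.61) in PANC-1. In SW1990 the FPKM turned the direction, with a log2 fold change of 0.33. CXCL1, CXCL2 and CXCL3 share short stretches of their transcripts. Of the 50-base words of the annotated CXCL1 transcript, 5.73% were also in CXCL2 and 0.573% in CXCL3. Reads on such stretches can be split between these genes, and how they were assigned is not given in the sources used here. No word of CXCL8 or CXCL5 was shared with another ELR member.

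**Figure D2:**
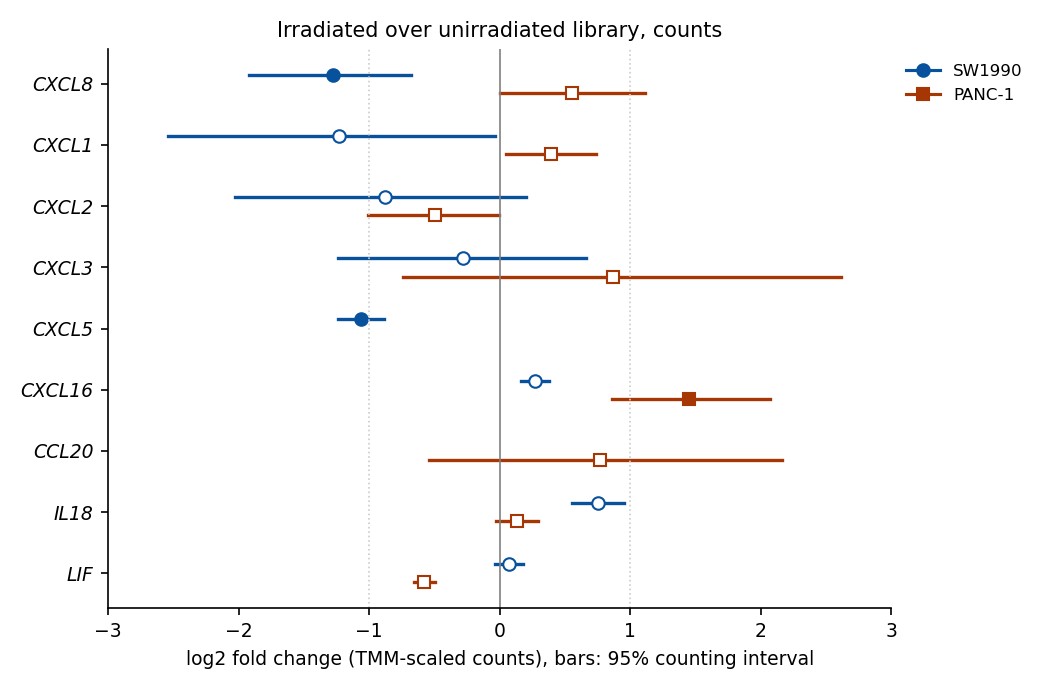
Log2 fold change of irradiated over unirradiated TMM-scaled counts for the members with more than 3 counts in both libraries of a line, circles for SW1990 and squares for PANC-1. Bars are 95% counting intervals, filled symbols were called and dotted lines mark a 2-fold change, with CXCL5, CXCL8 and the untested CXCL1 (-1.23) of SW1990 below -1 and CXCL16 of PANC-1 above 1.

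The interval on chromosome 4 from CXCL8 to CXCL2 is 359 kb long (GRCh38, 73740506 to 74099293) and held 16 genes of the table. The 5 ELR members were the genes with signal there, and 10 of the 16 had 3 counts or fewer in every library. PF4, the platelet factor, had 4 counts in unirradiated SW1990 cells and 0 in the other libraries. CXCL6 and PPBP, the remaining ELR chemokines of the interval, had 0 counts in all 4. CXCL5 lies 255 kb from CXCL8, between CXCL1 at 129 kb and CXCL3 at 296 kb. Its 0 counts in PANC-1 therefore stood between genes with 130 and 156 counts on one side and with 6 and 10 on the other. Over the 5 members the summed count was 941 before and 455 after radiation in SW1990, and 276 and 291 in PANC-1. CXCL5 alone made up 795 and 382 of the SW1990 sums.

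CXCL16, the membrane-bound chemokine (chr17:4733526-4739922, minus strand), had 1153 counts (24.9 FPKM) and 1396 counts (29 FPKM) in SW1990, the highest member level of that line in both libraries. In PANC-1 it had 34 counts (0.551 FPKM) before and 85 counts (1.54 FPKM) after radiation. Both irradiated libraries were above their controls, and the SW1990 and PANC-1 values lay far apart. The log2 fold change was 1.45 (0.86 to 2.07) in PANC-1, a 2.74-fold rise with q = 1.2e-06 in edgeR's exact binomial test, and 0.27 (0.16 to 0.38) in SW1990, which was under 2-fold and not called. In PANC-1 the gene entered the test only through the irradiated library. It was called there without the filter as well, but not with an FPKM filter of 5. It overlaps MED11 on the other strand, which had 140 and 112 counts in SW1990 and 149 and 187 in PANC-1. CCL20, an attractant of dendritic cells and lymphocytes (chr2:227813842-227817564, plus strand), had 0 counts in both SW1990 libraries, and 9 counts (0.312 FPKM) and 14 counts (0.596 FPKM) in PANC-1. The log2 fold change of 0.77 had an interval of -0.54 to 2.16. The 0 counts in SW1990 allow a level of up to 0.168 CPM before and 0.164 CPM after radiation.

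IL18 (chr11:112143251-112164117, minus strand) had 328 counts (13.2 FPKM) and 555 counts (21.5 FPKM) in SW1990, and 631 counts (18.1 FPKM) and 632 counts (19.7 FPKM) in PANC-1. The unirradiated SW1990 library was the lowest and the other 3 were close together in FPKM. The log2 fold change in SW1990 was 0.75 (0.55 to 0.95), or 1.68-fold, which passed the q-value (4.3e-13, edgeR's exact binomial test) but not the 2-fold limit. It was 0.13 (-0.03 to 0.29) in PANC-1. A locus that the authors' assembly gives no gene name overlaps IL18 on the same strand and had 35 and 231 counts in SW1990 and 538 and 409 in PANC-1. With its counts added, the log2 fold change was 1.11 (0.93 to 1.29) in SW1990, past the 2-fold limit, and -0.04 (-0.16 to 0.08) in PANC-1. Whether IL18 stays under that limit in SW1990 thus turned on this locus. SDHD, a gene of mitochondrial respiration on the other strand there, had at most 3 counts in any library. LIF (chr22:30240447-30246851, minus strand) had 1298 counts (16.0 FPKM) and 1370 counts (15.4 FPKM) in SW1990, and 3560 counts (31.5 FPKM) and 2175 counts (22.7 FPKM) in PANC-1. In PANC-1 the irradiated library was the lower one, with a log2 fold change of -0.58 (-0.66 to -0.50) that was past the q-value (3.4e-49, edgeR's exact binomial test) and under the fold limit. In SW1990 the value was 0.07 (-0.04 to 0.18). At a fold limit of 1.5, IL18 was called in SW1990 and LIF was still not called in PANC-1. IL6, for which this cytokine family is named (chr7:22725884-22732002, plus strand), had 0 counts in all 4 libraries, which allows a level of at most 0.168 CPM in any of them.

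Over the 8 members with more than 3 counts in both SW1990 libraries, 5 had a lower and 3 a higher scaled count after radiation. The 5 were the ELR chemokines and the 3 were CXCL16, IL18 and LIF. On FPKM CXCL3 (0.33) and LIF (-0.05) changed sides in SW1990. The intervals of 3 members there, CXCL2, CXCL3 and LIF, held 0. In PANC-1, 2 of 8, CXCL2 and LIF, were lower and 6 higher. The intervals of 4 of the higher members, CXCL8, CXCL3, CCL20 and IL18, held or reached 0. Of all genes tested, 50.7% were lower in SW1990 and 51.7% in PANC-1, with medians of -0.01 and -0.02. The difference between the lines' log2 fold changes was -1.83 for CXCL8 (SW1990 minus PANC-1, Wald interval -2.62 to -1.04), -1.18 for CXCL16 (-1.76 to -0.60), 0.62 for IL18 (0.37 to 0.87), 0.65 for LIF (0.52 to 0.78) and -0.38 for CXCL2 (-1.5 to 0.74). Of these 5 genes, which had at least 10 counts in every library, 4 had intervals without 0, as had 50.6% of the 14106 genes with such counts. These intervals hold no spread between cultures. In the fit of all 4 libraries (edgeR's quasi-likelihood test, line as a covariate), radiation gave 0 calls among 18180 genes, or 0%, with 877 genes at an unadjusted p under 0.05 and 39 calls by DESeq2, and no member was among the DESeq2 calls.

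The lines differed in 5 of the 8 members that entered the same 4-library fit, where 8124 of 18180 genes, or 44.7%, were called at an adjusted p under 0.05. CXCL5 and CXCL16 were higher in SW1990, and CXCL1, CXCL2 and LIF were higher in PANC-1. CXCL5 was at least 298-fold higher in SW1990 in the unirradiated pair and at least 132-fold higher in the irradiated pair, against a floor of 3 counts in the PANC-1 library (adjusted p = 0.00055, edgeR's quasi-likelihood test). CXCL16 had a fitted log2 ratio of SW1990 over PANC-1 of 4.61 (adjusted p = 0.00068, edgeR). It was 38.2-fold higher in the unirradiated and 17.0-fold higher in the irradiated pair. CXCL1 had a fitted log2 ratio of -3.19 (adjusted p = 0.0075, edgeR), with 5.50-fold and 16.8-fold lower scaled counts in SW1990 in the 2 pairs. CXCL2 followed with -2.03 and LIF with -0.96 (adjusted p = 0.017 for each, edgeR). By DESeq2, CXCL2 was not called.

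CXCL8 had a fitted log2 ratio of -0.05 (adjusted p = 0.95, edgeR). On scaled counts its 2 pairs pointed in opposite directions, with 0.85 (0.32 to 1.39) unirradiated and -0.97 (-1.62 to -0.35) irradiated. On FPKM the log2 ratios of CXCL8 were 1.33 unirradiated and -0.09 irradiated, so that the irradiated pair was then nearly level. IL18 had a fitted log2 ratio of -0.46 and CXCL3 of 1.49, and neither was called (adjusted p = 0.16 and 0.13, edgeR). The IL18 ratio leaves out the unnamed locus that overlaps the gene. With that locus added, the IL18 counts before and after radiation were 363 and 786 in SW1990 and 1169 and 1041 in PANC-1. The line difference of these sums was not tested. Within single pairs, by the binomial rule, 6010 of 16626 genes (36.1%) were called unirradiated and 5943 of 16819 (35.3%) irradiated. CXCL1, CXCL2, CXCL5 and CXCL16 were called in both pairs. LIF was called in the unirradiated pair alone, at 2.44-fold lower in SW1990 against 1.54-fold in the irradiated pair. On FPKM the log2 ratio of LIF in the unirradiated pair was -0.98, just under the 2-fold limit. The unirradiated and irradiated pairs share their libraries with the radiation comparisons. The 4-library fit had terms for line and radiation, which left 1 residual degree of freedom. That residual is the difference in radiation response between the lines, so the adjusted p-values hold no spread between replicate cultures.

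**Figure D3:**
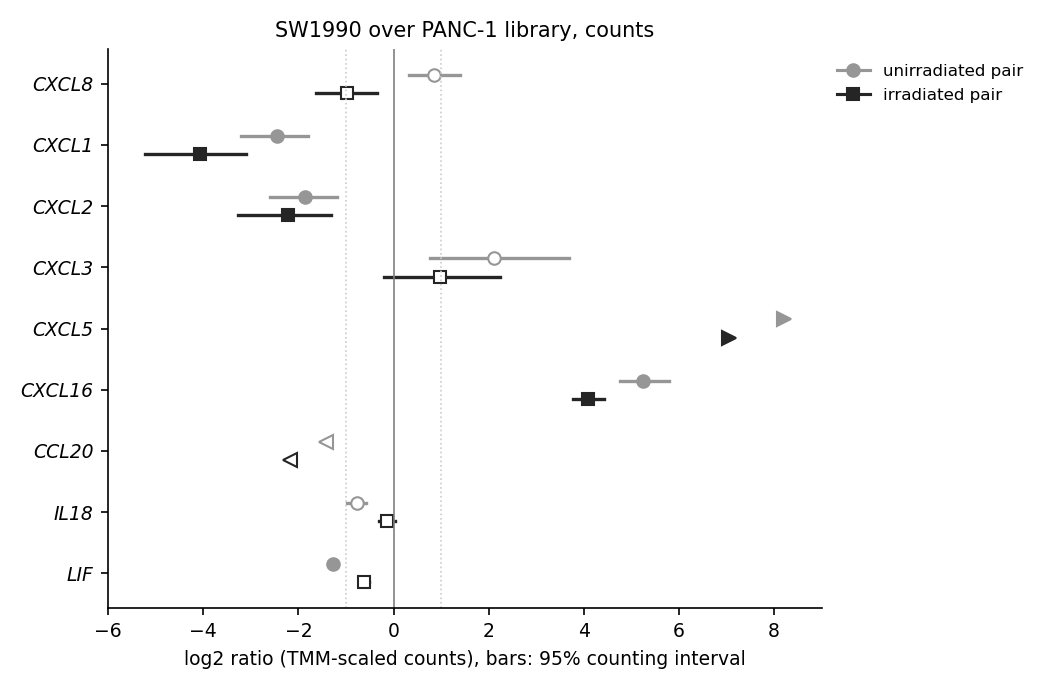
Log2 ratio of SW1990 over PANC-1 scaled counts for the members, circles for the unirradiated and squares for the irradiated pair, with bars for 95% counting intervals and triangles for bounds where one library had 0 counts. CXCL5 (bounds of 298-fold and 132-fold) and CXCL16 lie to the right, as does CXCL3 (2.11 and 0.97, neither called), CXCL1, CXCL2, LIF, IL18 and CCL20 (bounds) to the left, and CXCL8 on both sides of 0.

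Epithelial and mesenchymal genes were used to check the labels of the lines, beside a share of 44.7% of all genes called between the lines in the 4-library fit. Of 6 epithelial markers, EPCAM, CDH1, KRT8 and KRT18 were called higher in SW1990 in the 4-library fit, and KRT19 and KRT7 were not called (adjusted p = 0.13 and 0.77, edgeR). All 3 mesenchymal markers (VIM, CDH2 and ZEB1) were called higher in PANC-1. EPCAM had 7348 and 7552 counts in SW1990 and 108 and 113 in PANC-1, and CDH1 had 9906 and 14345 against 59 and 65. VIM, the mesenchymal filament gene, had 17 and 0 counts in SW1990 and 82406 and 75166 in PANC-1. The keratins KRT8, KRT18 and KRT19 were high in all 4 libraries, the lowest value being 146 FPKM for KRT19 in unirradiated PANC-1 cells, while KRT7 lay between 5.02 and 6.35 FPKM. Of 4 leukocyte markers, CD3E was at 0 in all libraries and PTPRC had at most 2 counts, while CD68, also a lysosomal gene of other cells, had 31 and 37 counts in SW1990 and 967 and 583 in PANC-1 and was called higher in PANC-1 (adjusted p = 0.00066, edgeR). CD14 had 39 and 56 counts in SW1990 and 26 and 52 in PANC-1 (log2 fold change 1.13, 0.42 to 1.87, not called). The summed FPKM of the 4 was 1.77 and 2.25 in SW1990 and 19.2 and 15.0 in PANC-1. ZEB1, a repressor of epithelial genes, rose in irradiated SW1990 cells from 14 to 66 counts (log2 fold change 2.23, 1.38 to 3.18). It entered the test only through the irradiated library. Of 4 fibroblast markers, DCN, LUM and COL1A2 had 0 counts in SW1990, and PDGFRB, a growth factor receptor, fell there from 129 to 63 counts (-1.04, -1.5 to -0.60). On FPKM its log2 fold change was -0.60, under the 2-fold limit. In PANC-1 PDGFRB had 0 and 3 counts, and it was at least 48.4-fold higher in SW1990 in the unirradiated pair, against a floor of 3 counts (adjusted p between the lines = 0.0071, edgeR). DCN and COL1A2 were at 0 counts in PANC-1 too, and LUM had 2 and 0. Of 3 endothelial markers, none was tested for radiation within a line. VWF, a clotting protein of vessel walls, had 14 and 50 counts in SW1990 (0.072 and 0.296 FPKM, log2 fold change 1.83, 0.95 to 2.8) and 2 and 4 counts in PANC-1, CDH5 had 8 and 0 counts in SW1990 and PECAM1 had 0 and 2, and the latter pair had 0 counts in PANC-1. Between the lines VWF was called higher in SW1990 (adjusted p = 0.016, edgeR). The summed FPKM of the 3 was 0.155 and 0.309 in SW1990 and 0.00782 and 0.0685 in PANC-1. The part of these genes in the member values was not tested.

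Few receptors of the ligands were detected. Of the 10 receptor genes listed, 2 reached 1 FPKM in SW1990 and 3 in PANC-1, 4 (CXCR6, CCR6, IL18RAP and ACKR1) had 0 counts in all libraries, and none was called after radiation. CXCR2 had 6 and 8 counts in SW1990 and 0 in PANC-1, and CXCR1 had 3 counts in irradiated PANC-1 cells and 0 elsewhere. IL18R1 had 5 and 5 counts in SW1990 and 2 and 8 in PANC-1.

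The IL6 and LIF receptor chains were the receptors with a clear signal, and they differed by line. IL6ST, the shared chain, had 1801 and 2156 counts (13.3 and 16.6 FPKM) in SW1990 and 9958 and 8270 counts (59.5 and 63.4 FPKM) in PANC-1. LIFR, the LIF-binding chain, had 2 and 0 counts in SW1990, while it had 3442 and 3540 counts (14.3 and 19.1 FPKM) in PANC-1. LIF itself was above 15 FPKM in every library. Both chains were called between the lines (adjusted p = 0.00088 for IL6ST and 0.00027 for LIFR, edgeR's quasi-likelihood test). IL6R was called lower in SW1990 as well (fitted log2 ratio -1.19, adjusted p = 0.03, edgeR). IL6R had 172 and 343 counts in SW1990, a log2 fold change of 0.99 (0.72 to 1.26) and 1.98-fold, just under the fold limit, and 1.03 on FPKM, just past it, so that its call turned on the scale. It had 636 and 560 counts in PANC-1.

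Of the 13 genes of JAK, STAT and MyD88 signalling listed, 11 were tested in SW1990 and 12 in PANC-1, and none was called after radiation. IRAK1, the kinase below the IL18 receptor, had the highest mean FPKM over the 4 libraries, with 45.9 and 56.9 FPKM in SW1990 and 98.7 and 96.7 FPKM in PANC-1. STAT3 had 28.6 and 37.2 FPKM against 50.4 and 56.2, and PTPN11, the phosphatase SHP2, had 59.6 and 57.8 FPKM against 42.5 and 38.3, above IRAK1 in both SW1990 libraries. SOCS3, a feedback inhibitor of JAK signalling, had 16 and 33 counts in SW1990 and 2599 and 1475 counts in PANC-1 (adjusted p = 0.00065, edgeR's quasi-likelihood test). In PANC-1 the log2 fold change of SOCS3 after radiation was -0.69 (-0.78 to -0.59), which was not called. In SW1990 it was 1.04 (0.14 to 2), the other way. SOCS1 had 6 and 27 counts in SW1990 (2.16, 0.86 to 3.73) and 18 and 30 counts in PANC-1 (0.87, -0.02 to 1.8). Both genes were below 1 FPKM in SW1990, and SOCS1 also in PANC-1, so they were not tested there.

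**Figure D4:**
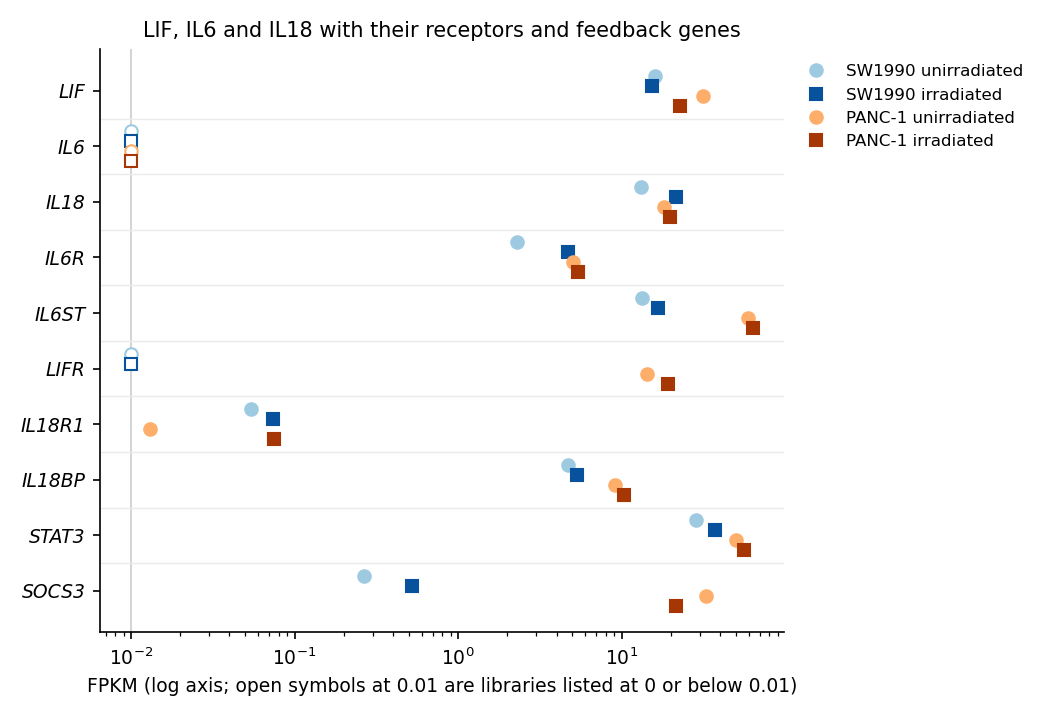
FPKM on a log axis of LIF, IL6 and IL18, their receptors, the decoy IL18BP, STAT3 and SOCS3 in the 4 libraries, circles for unirradiated and squares for irradiated cells, with open symbols at the left edge for values of 0 or below 0.01. LIFR (14.3 and 19.1 FPKM) and SOCS3 (32.9 and 21.6 FPKM) were high in PANC-1, and in SW1990 LIFR was at the left edge and SOCS3 at 0.265 and 0.525 FPKM.

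Of 7 genes that process or bind the ligands, 4 were tested in SW1990 and 5 in PANC-1, and none was called after radiation. CASP1, which cuts the IL18 precursor, had 0 counts in all 4 libraries. CASP4, a related caspase, had 812 and 729 counts in SW1990 and 497 and 259 in PANC-1, with a log2 fold change in PANC-1 of -0.81 (-1.03 to -0.59). PYCARD, the inflammasome adaptor, had 0 counts in SW1990 and 278 and 345 in PANC-1, at least 82.3-fold higher in the unirradiated pair. ADAM10 lay between 16.3 and 19.4 FPKM and ADAM17 between 12.4 and 17.1 FPKM in the 4 libraries, both of them proteases that cut CXCL16. On scaled counts the SW1990 over PANC-1 log2 ratio of ADAM17 was -0.62 (-0.73 to -0.52) in the unirradiated pair and -0.30 (-0.42 to -0.18) in the irradiated pair, and that of ADAM10 was -0.10 (-0.17 to -0.03) and -0.01 (-0.09 to 0.06). None of these ratios was called. IL18BP had 334 and 302 counts in SW1990 and 691 and 709 in PANC-1. Between the lines PYCARD and IL18BP were called higher in PANC-1 (adjusted p = 0.001 and 0.011, edgeR). CASP4 was called higher in SW1990 (adjusted p = 0.012, edgeR).

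Of 10 genes of transcript stability and feedback, all were tested in both lines and none was called after radiation. Transcripts of many cytokines carry AU-rich stretches in the 3′ UTR, on which ZFP36, HNRNPD and KHSRP act to speed decay. In GENCODE release 29, with 1 coding transcript per gene, 5 of the 10 members (CXCL1, CXCL2, CXCL3, CXCL8 and LIF) held the nonamer TTATTTATT in the 3′ UTR of the transcript strand, against 7.19% of 18840 genes. The members held 5.49 ATTTA per kb, against 2.26 over all these genes. CXCL2 held the most nonamers, 5, and IL18 held no ATTTA. These searches were added after the values had been seen. ZFP36 had 372 and 535 counts in SW1990 (log2 fold change 0.52, 0.32 to 0.71) and 2060 and 3703 counts in PANC-1 (0.98, 0.90 to 1.05). HNRNPD had 3009 and 2118 counts in SW1990 (-0.51, -0.59 to -0.43) and 2886 and 1375 counts in PANC-1 (-0.94, -1.03 to -0.85). KHSRP had 159 and 178 FPKM in SW1990 and 103 and 91.6 FPKM in PANC-1. ZFP36 was the higher and HNRNPD the lower after radiation in both lines, each by less than 2-fold. ZFP36L1, a relative of ZFP36 that also acts to speed decay, had 1776 and 1567 counts in SW1990 (-0.19, -0.29 to -0.09) and 927 and 513 counts in PANC-1 (-0.72, -0.88 to -0.57). On FPKM its log2 fold change in PANC-1 was -1.33 (16.2 and 6.44 FPKM), past the 2-fold limit, so that its call there turned on the scale.

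Most other ligands were silent or low. Of 37 other chemokine ligands in the table, 24 had 0 counts in all libraries, 4 reached 1 FPKM in SW1990 and 3 in PANC-1, and none was called after radiation. The 4 tested in SW1990 had a median log2 fold change of 0.37 and the 3 tested in PANC-1 of -0.56. CCL2, the monocyte attractant, had 0 counts in both SW1990 libraries and 1415 and 1249 counts (65.4 and 66.6 FPKM) in PANC-1, at least 419-fold higher there in the unirradiated and 403-fold in the irradiated pair. By FPKM it was above every member in PANC-1. CCL28, a mucosal chemokine, had 163 and 215 counts in SW1990 and 157 and 94 in PANC-1. CCL26 had 34 and 66 counts in SW1990 and 0 in PANC-1.

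IL1RN, the IL1 receptor antagonist, rose in irradiated SW1990 cells from 105 to 387 counts (3.56 to 10.3 FPKM), a log2 fold change of 1.88 (1.56 to 2.20), and had 0 counts in PANC-1. TNFSF15, a TNF-family ligand, rose in SW1990 from 255 to 753 counts (1.56, 1.35 to 1.77), and had 22 and 4 counts in PANC-1. IL17D rose in SW1990 from 6 to 43 counts (2.83, 1.6 to 4.36), with a smaller log2 fold change of 1.25 on FPKM (0.426 to 1.02). CTF1, a LIF-related ligand, fell in PANC-1 from 94 to 37 counts (-1.21, -1.80 to -0.65). IL17D and CTF1 passed the FPKM filter only through the library in which they were high. These 4 were the calls among the 56 listed ligands of the IL6, IL1, interleukin, colony-stimulating factor and TNF lists that are in the table. Of these lists, 12 genes were tested in SW1990 and 3 called, and 7 were tested in PANC-1 and 1 called, against 4.2% and 4.77% of all genes tested. MIF was the most abundant listed ligand, with 139 and 158 FPKM in SW1990 and 126 and 102 FPKM in PANC-1. IL32 had 13.0 and 11.7 FPKM in SW1990 and 3.32 and 4.39 FPKM in PANC-1, and CSF1, the macrophage growth factor, had 3.43 and 2.78 FPKM against 16.2 and 23.4 FPKM. CLCF1, which signals like LIF through IL6ST, had 2.64 and 4.33 FPKM in SW1990 and 4.31 and 5.03 FPKM in PANC-1.

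The pattern of FPKM over the 4 libraries, without regard to level, was near that of CXCL8 in genes of other kinds. Among 11881 genes that reached 1 FPKM in all 4 libraries, the 5 nearest by Euclidean distance of centred log2(FPKM + 1) were RN7SL146P, SHKBP1, PIGB, AC006077.2 and AC068724.1, at distances from 0.0528 to 0.0785. RN7SL146P had 2.84, 1.73, 1.1 and 1.96 FPKM in unirradiated and irradiated SW1990 and unirradiated and irradiated PANC-1 cells, and its reads cannot be told apart with certainty from those of the many copies of its RNA family. SHKBP1 had 37.4, 29, 21.9 and 30.0 FPKM in the same order. The likeness was on FPKM. The counts of SHKBP1, not scaled to library size, were 1162, 965, 1055 and 970, against 80, 33, 50 and 67 for CXCL8. With 4 libraries, likeness of this kind is a description only.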

How the data were processed

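RNA of 4 cultures was sequenced, 1 library each. Per the labels and the supplementary methods, reads were trimmed with Trimmomatic 0.36, aligned with HISAT2 2.0 to GRCh38 and expression was computed with StringTie 1.3.3b. The authors deposited 1 table of 59263 rows with, for each library, a read count that is not normalized and an FPKM value. The tool that made the counts is not given in the sources used here, and neither is use of strand. The labels speak of ribosomal RNA removal and of an mRNA kit. Rows of 1089 StringTie loci that name no gene, with between 0.453% and 0.635% of a library's counts, were left out. The members and gene lists were chosen with earlier results of these data known.

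All values were computed from the table with edgeR 4.0.16 in R 4.3.3, with DESeq2 1.42.0 and limma 3.58.1 as alternatives. Library sizes were scaled by TMM within each pair, or over the 4 libraries in the joint fit (genes kept by filterByExpr), and p-values were adjusted after Benjamini-Hochberg over all genes tested. For calls, a value of 0 was set to 0.01. Intervals of folds are Clopper-Pearson intervals. No fold is given where a library has 3 counts or fewer, other than a bound against 3 counts in 1 library. Named genes are the 10 members, and of each list the called genes and up to 3 with the highest mean FPKM; further genes were named after their values were seen, among them EPCAM, CDH1, SOCS3, CASP1, PYCARD, IL18BP, IL18R1, the chemokine receptors, CD3E, PF4 and the neighbours on chromosome 4. Library scaling, FPKM and fold limits, an assumed spread between replicates, FPKM in place of counts and the test itself were varied. The scripts were tested on simulated data. Protein sequences were not used here.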

Additional observations from a re-analysis of the deposited data

Results flagged for a closer look

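Of the 7 members with more than 3 counts in all 4 libraries, 4 had radiation log2 fold changes of opposite sign in the 2 lines, each with 1 library per condition. Of all 16065 genes with as many counts, 45.7% did so, a share near that of the members. The log2 fold change in SW1990 minus that in PANC-1 was -1.83 for CXCL8 (-1.28 against 0.55), with a counting interval of the difference from -2.62 to -1.04. It was 0.65 for LIF (0.07 against -0.58), with an interval from 0.52 to 0.78, and on FPKM the SW1990 value of LIF was -0.05, so that both lines then pointed the same way. It was -1.62 for CXCL1 (-1.23 against 0.39) and -1.15 for CXCL3 (-0.28 against 0.87), where counts under 10 allow no such interval and the difference was not tested. On FPKM the SW1990 value of CXCL3 was 0.33, so that its directions were then no longer opposite.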

How the results depend on the processing

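With 1 library per condition the limits are those of single libraries: no alternative that leaves out a replicate could be run, and the 4-library fit has no residual degree of freedom once a library is left out. The 4-library fit already pairs the libraries by line, and no replicate number gives a further pairing. Counts of calls were within 1.5 times of those reported under total counts, DESeq2 size factors, no FPKM filter and with the unnamed loci kept. In SW1990 (2 members, 661 genes reported), FPKM folds left 1 member (CXCL5), an FPKM filter of 5 left 1 member and 305 genes, a fold limit of 1.5 gave 1472 genes, and an assumed coefficient of variation of 0.2 or 0.4 left 0 members and 99 or 15 genes. In PANC-1 (1 member, 723 genes), the FPKM filter of 5 left 0 members and 319 genes, the fold limit of 1.5 gave 1794 genes, and the coefficients of 0.2 and 0.4 left 0 members and 103 or 10 genes. The common coefficient of variation of the 4-library fit was 0.219. For radiation over both lines (0 genes), DESeq2 called 39 genes and limma on log2(FPKM + 1) called 1. The line difference called between 4 and 6 members under its 7 alternatives. Adding the counts of the locus that overlaps IL18, chosen after seeing the data, moved its log2 fold change in SW1990 from 0.75 to 1.11, and turned it from 0.13 to -0.04 in PANC-1. The causes of these shifts were not tested.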

Other observations

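Count and FPKM did not move together in every member. The bases per read that a gene's count, its FPKM and the library total imply were 1680 before and 1042 after radiation for CXCL8 in SW1990, and 1514 and 968 for CXCL3, ratios of 0.620 and 0.639. For CXCL2 the ratio was 1.39, the other way, with a log2 fold change of -0.88 on counts and -1.39 on FPKM. For CXCL5 it was 0.994, for CXCL1 1.03, for LIF 1.07, for CXCL16 1.01 and for IL18 1.01. Among 14421 genes with at least 20 counts in both SW1990 libraries, 4.15% had a ratio more than 1.5-fold from 1, and 3.92% of 14401 genes in PANC-1. In SW1990 CXCL3 (23 and 19 counts), CXCL2 (22 and 12) and CXCL1 (21 and 9) were under that minimum in the irradiated library, and CXCL3 was under it in both PANC-1 libraries (6 and 10), so these percentages do not cover their ratios. In PANC-1 the ratio was 0.901 for CXCL8 and 1.38 for CXCL3. As a result, irradiated SW1990 and PANC-1 cells had nearly equal CXCL8 FPKM (1.73 and 1.84) and unequal CXCL8 counts (33 and 67). The table gives 1 value per gene, and which transcripts of CXCL8 or CXCL3 the reads came from was not tested.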
